A study of Mus musculus with 16 samples.

Results

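The genes described here are 8 members of the MYC-MAX-MXD network of transcription factors: Myc, Max, Mxd1, Mxd3, Mxd4, Mnt, Mlx and Mga. They were chosen by symbol from the RNA count table, where all 8 of 8 were found among 13275 genes, and all 8 were among the 12022 genes with enough counts to test. Their chromatin was followed through the ATAC-seq peaks that overlapped each gene body extended by 2 kb at both ends. Merging overlapping peaks gave 21 such regions of 73648 in the cells sorted in vitro and 19 of 72327 in cells recovered from tumours.

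The cells were CD8+ T cells of Pmel-LC3-GFP-RFP mice, whose T-cell receptor recognises a melanocyte antigen and which carry a reporter on LC3, a protein of autophagosome membranes. They received antibodies to CD3 and CD28 (2 µg/ml each) over 3 days with IL2 at 100 IU/ml and carbon monoxide (CO) for 24 h, and were then sorted as LC3-GFP positive or LC3-GFP negative. RNA-seq had 2 positive and 2 negative libraries, and ATAC-seq, in which Tn5 transposase marks open chromatin, had another 2 and 2 in vitro libraries. For the tumour libraries, C57BL/6 hosts with B16-F10 melanoma of 12 days received cells of either population by transfer, and the Vβ13+CD8+ cells of each host's tumour were sorted 15 days after transfer, with 4 mice per population. All of these cells had been stimulated and CO-treated, and untreated cells were not analysed here. The hosts are labelled only as C57BL/6, so T cells of the host that carry Vβ13 could be among the sorted cells. Whether the RNA replicates, or those of in vitro ATAC, are separate animals is not stated. Their p-values thus reflect spread among these libraries alone, possibly a technical one.

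MYC binds DNA as a heterodimer with MAX at E-boxes such as CACGTG and is induced when T cells are activated, where it drives growth, ribosome production and metabolic reprogramming. MXD proteins and MNT compete for MAX and recruit SIN3-histone deacetylase corepressors, and MLX is a MAX-like partner of the glucose-sensing Mondo proteins and of some MXD proteins. MGA also pairs with MAX and is the scaffold of a variant Polycomb complex, PRC1.6, that silences germline genes.

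Rounded RNA totals ran from 14567545 to 17557633 counts per library. The in vitro ATAC libraries had 49634 to 63761 peaks and the tumour libraries 27406 to 55171, with the fewest in tumour positive replicate 1 and the most in tumour negative replicate 2, which stood apart from the other tumour libraries. Of 10 CD8 T-cell markers all were measured, 6 being lower and 0 higher in positive cells (edgeR, median log2 change -0.14). The counts were 7 and 0 at an unadjusted p under 0.05 with edgeR, and 4 and 0 with DESeq2. Over all genes tested 13.6% were lower and 11.3% higher, the shares beside which this and the next marker counts stand. Cd8a had a level of 529 ± 7.61 CPM (counts scaled to TMM-adjusted library size, with SD, n = 2) in the positive libraries and 600 ± 25.2 CPM in the negative ones. B-cell markers summed to 15.0 and 13.5 CPM in positive libraries against 4.47 and 6.01 CPM in negative ones, 5 of 6 tested being higher in positive cells and Ms4a1 being at 0 in 1 negative library. Myeloid markers, a list that includes the MHC class II genes which B cells also express, summed to 70.3 and 75.2 CPM in positive libraries against 75.5 and 80.6 CPM in negative ones, with 3 of 6 tested higher and 2 lower. H2-Ab1 made up most of that sum, and without it the list summed to 23.5 and 23.0 CPM in positive libraries against 8.48 and 9.30 CPM in negative ones. Cd74, the MHC class II invariant chain, made up most of what remained in positive libraries and was 14.3-fold higher in positive cells. The 2 lower genes were H2-Ab1 and Cd68. Cd68 stood at 1.78 and 2.26 CPM in positive libraries against 6.02 and 5.73 CPM in negative ones, so the list did not move in 1 direction. Pax5, Lyz2, Csf1r and Adgre1 were not listed. Of 2 CD4 T-cell markers, Cd4 stood at 3.90 ± 0.715 CPM in positive libraries against 0.835 ± 0.192 CPM in negative ones (SD, n = 2 each). Zbtb7b went the other way, at 54.2 and 50.2 CPM in positive libraries against 76.2 and 69.5 CPM in negative ones. Among 5 melanoma genes only Pmel was listed, at 1.06 and 1.63 against 1.94 and 1.96 CPM. The precursor ribosomal RNA gene Rn45s took 1.43% and 1.51% of positive and 3.20% and 3.58% of negative library counts. These values moved with the populations, and their part in the results below was not tested.

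The promoters of 7 members, all but Myc, were found in the RefSeq promoter table of GRCm38.p6 (the mm10 assembly), each running from 250 bases before to 50 after the gene start. The canonical E-box CACGTG, a palindrome that reads the same on both strands, was present in 4 of these 7 (57.1%), against 2349 of 32851 promoters of the same length in the table (7.15%) and 985 of 9424 promoters of genes tested for RNA (10.5%). It occurred once in each of Max, Mxd4, Mnt and Mlx, beginning 3, 219, 123 and 40 bases upstream of the start, and an ATAC peak lay over it in 12 of 12 libraries for each. The letters were absent from the windows of Mxd1, Mxd3 and Mga. For Mga the window searched lay at the deposited start, 119897228. The RefSeq body of Mga begins upstream of it, at 119872503, and the bases around that position were not searched. The promoters with the motif are printed because members of this network are known to bind it, with CACGTG in capitals, and that of Mxd1 because its RNA differed most; all read 5′ to 3′ on the gene's strand, at chr12:76962199-76962498 (-) for Max, chr5:34187661-34187960 (-) for Mxd4, chr11:74830674-74830973 (+) for Mnt, chr11:101087040-101087339 (+) for Mlx and chr6:86669110-86669409 (-) for Mxd1.
Max: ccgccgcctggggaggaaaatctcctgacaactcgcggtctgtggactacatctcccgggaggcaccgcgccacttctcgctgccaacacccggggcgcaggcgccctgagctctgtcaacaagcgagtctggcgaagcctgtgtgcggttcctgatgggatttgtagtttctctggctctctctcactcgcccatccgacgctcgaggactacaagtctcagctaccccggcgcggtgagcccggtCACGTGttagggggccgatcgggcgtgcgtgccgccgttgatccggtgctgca
Mxd4: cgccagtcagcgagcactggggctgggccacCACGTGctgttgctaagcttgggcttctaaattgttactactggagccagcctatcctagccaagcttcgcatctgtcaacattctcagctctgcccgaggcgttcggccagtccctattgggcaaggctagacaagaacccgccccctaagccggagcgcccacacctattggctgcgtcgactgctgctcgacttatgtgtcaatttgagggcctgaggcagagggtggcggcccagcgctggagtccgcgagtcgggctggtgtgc
Mnt: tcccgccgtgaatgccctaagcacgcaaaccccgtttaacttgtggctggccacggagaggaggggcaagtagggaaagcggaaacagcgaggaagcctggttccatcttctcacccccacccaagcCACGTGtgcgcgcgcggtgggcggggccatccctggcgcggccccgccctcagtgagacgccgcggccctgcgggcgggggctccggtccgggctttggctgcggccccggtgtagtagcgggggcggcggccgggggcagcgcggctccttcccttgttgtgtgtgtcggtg
Mlx: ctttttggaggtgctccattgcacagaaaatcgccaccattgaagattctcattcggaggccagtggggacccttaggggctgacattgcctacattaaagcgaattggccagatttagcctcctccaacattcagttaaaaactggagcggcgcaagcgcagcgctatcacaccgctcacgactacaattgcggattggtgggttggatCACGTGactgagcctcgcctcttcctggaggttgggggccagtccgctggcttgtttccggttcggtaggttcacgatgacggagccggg
Mxd1: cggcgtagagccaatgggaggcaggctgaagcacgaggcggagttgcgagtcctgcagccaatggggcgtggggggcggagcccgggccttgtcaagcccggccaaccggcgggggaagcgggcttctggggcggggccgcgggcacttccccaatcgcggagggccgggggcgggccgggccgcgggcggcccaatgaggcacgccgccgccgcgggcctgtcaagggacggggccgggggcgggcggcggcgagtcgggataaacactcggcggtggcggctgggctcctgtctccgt

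In RNA, LC3-GFP positive cells had 1.77-fold less of the antagonist Mxd1 than negative cells and slightly more Myc and Mga, while the other 5 members did not pass the test. Of the 8 members, 3 were called at an adjusted p under 0.05 (edgeR quasi-likelihood test, Benjamini-Hochberg over 12022 genes), 2 higher and 1 lower in positive cells. Over all tested genes 25% were called, 11.3% higher and 13.6% lower, so with 8 genes the count of 3 lies near the background. The same 3 members were those whose positive and negative libraries did not overlap, against 61.5% of all genes (30.6% with both positive libraries above, 31% with both negative libraries above). In such bulk libraries, fewer cells of a type and less RNA per cell cannot be told apart. Levels below are CPM on TMM-scaled library sizes; they are not per gene length, so levels of different genes are not compared.

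Myc (chr15:61985341-61990361, plus strand), the driver of growth in this network, was at 579 and 574 CPM in positive libraries against 526 and 494 CPM in negative ones. Both positive libraries lay above both negative ones. The means were 577 ± 3.62 CPM and 510 ± 22.8 CPM (SD, n = 2 each), a 1.13-fold difference with a log2 change of 0.18 (SE 0.045, edgeR adjusted p = 0.0074). Without positive replicate 1 the log2 change was 0.17 and the adjusted p 0.119, and without positive replicate 2 they were 0.19 and 0.0777, so the call was lost while the size of the difference stayed similar. Max (chr12:76937269-76962248, minus strand), the obligate partner of MYC, was at 95.3 and 105 CPM in positive libraries against 98.4 and 104 CPM in negative ones. These groups overlapped, with a log2 change of -0.02 (SE 0.060, edgeR adjusted p = 0.89).

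Mxd1 (chr6:86647045-86669159, minus strand), an MXD repressor tied to cell-cycle exit and differentiation, was at 19.3 and 22.4 CPM in positive libraries against 35.6 and 38.1 CPM in negative ones. Every negative library was well above every positive library. The means were 20.8 ± 2.17 and 36.9 ± 1.78 CPM (SD, n = 2 each), a fall of 0.83 on the log2 scale (SE 0.096, edgeR adjusted p = 5.82e-06). Mxd1 was lower in each of 10 alternative analyses, with log2 changes from -0.93 to -0.72 and adjusted p of at most 4.15e-05. As a description chosen after the values were seen, there were 30.1 and 25.7 Myc counts per Mxd1 count in positive libraries against 14.8 and 13.0 in negative ones. The same ratio of Mga to Mxd1 counts was 10.2 and 9.14 in positive libraries against 4.68 and 4.49 in negative ones. Myc and Mga were called higher and Mxd1 lower, so that these ratios separate the populations follows from the values above.

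The remaining repressors of the network did not pass the test. Mxd3 (chr13:55325168-55329730, minus strand), the MXD protein associated with cycling cells, was at 26.6 and 23.7 CPM in positive libraries against 25.4 and 28.3 CPM in negative ones (log2 change -0.09, edgeR adjusted p = 0.54). Mxd4 (chr5:34176580-34187710, minus strand), another MXD repressor, was at 8.58 and 8.60 CPM in positive libraries against 7.96 and 8.67 CPM in negative ones (log2 change 0.05, edgeR adjusted p = 0.86). Mnt (chr11:74830924-74845725, plus strand), a broadly expressed MAX-binding repressor, was at 79.4 and 70.9 CPM in positive libraries against 75.9 and 81.1 CPM in negative ones (log2 change -0.06, edgeR adjusted p = 0.56). In all 3 genes the 2 populations overlapped. The 3′ end of Mxd3 overlaps the neighbouring gene Prelid1, and that of Mlx overlaps Psmc3ip; since the handling of strand is not given, counts of both members are uncertain there.

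Mlx (chr11:101087290-101092207, plus strand) was at 46.4 and 40.9 CPM in positive libraries against 44.3 and 44.8 CPM in negative ones. The negative values lay between the positive ones (log2 change -0.02, edgeR adjusted p = 0.86). Mga (chr2:119897228-119969581, plus strand) was at 197 and 204 CPM in positive libraries against 167 and 171 CPM in negative ones. Both positive libraries were above both negative ones. The means were 201 ± 4.84 and 169 ± 3.19 CPM (SD, n = 2 each), a log2 change of 0.25 (SE 0.048, edgeR adjusted p = 0.00081). Mga remained called in each of 10 alternative analyses, with log2 changes from 0.23 to 0.31 and adjusted p of at most 0.0246. The signs for Max, Mxd4, Mnt and Mlx changed under some scaling or with a library left out, so no direction is given for them.

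**Figure D1:**
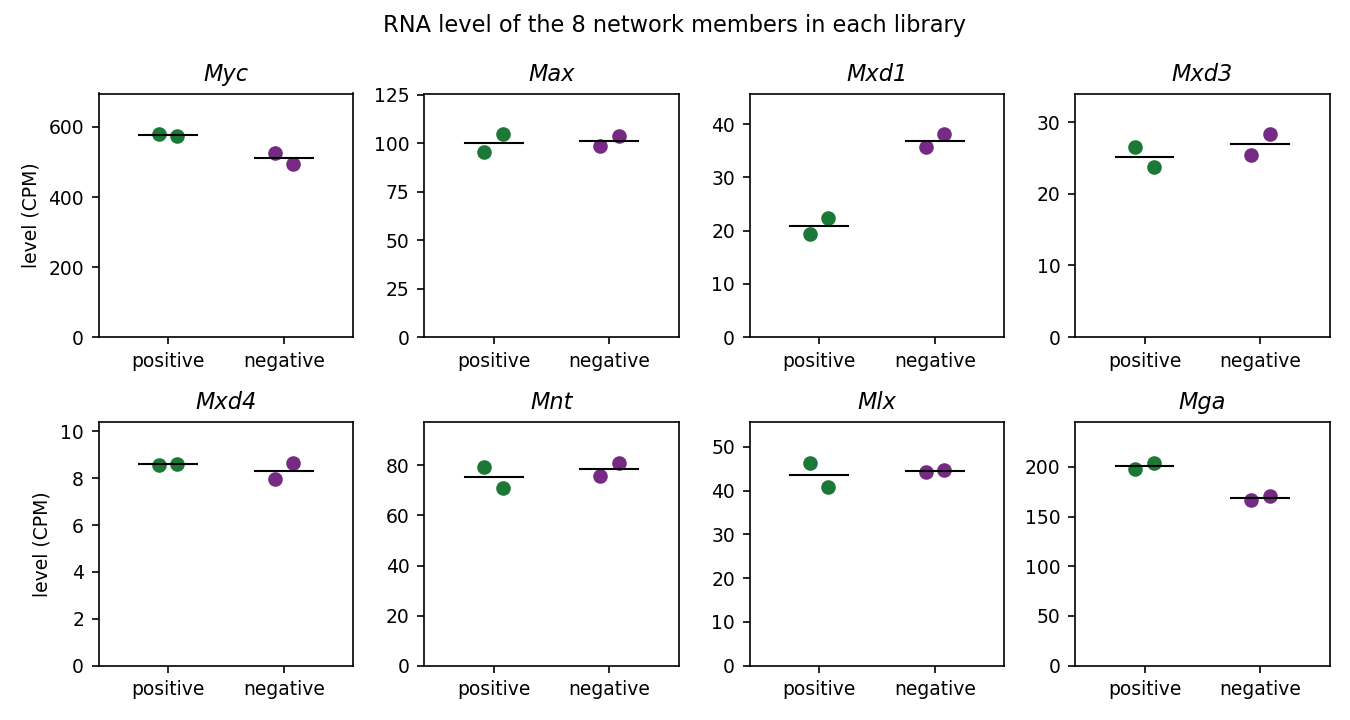
RNA level in CPM (vertical axis of each panel, starting at 0) of the 8 members in LC3-GFP positive and negative cells; each point is 1 library and each line the mean of 2. Mxd1 falls from 35.6 and 38.1 CPM in negative to 19.3 and 22.4 CPM in positive cells, Myc and Mga are slightly higher in positive cells, and the other 5 members overlap.

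The other factors of the network, outside the 8 members, were lower in positive cells or did not pass the test. Of 5 such genes 4 were tested, and 3 were lower (75%, against 13.6% of all genes tested) and 0 higher (against 11.3%). At an unadjusted p under 0.05 with edgeR 0 were higher, and DESeq2 called 1 lower and 0 higher. Mycn, the MYC paralogue best known from neural tissue, was at 17.0 ± 2.07 CPM in positive libraries against 24.5 ± 1.37 CPM in negative ones (SD, n = 2 each; log2 change -0.53, edgeR adjusted p = 0.0019). Mxi1, an MXD repressor, fell by 0.16 on the log2 scale (edgeR adjusted p = 0.026), and Mlxip, which encodes the MLX partner MondoA, fell by 0.17 (edgeR adjusted p = 0.029). Both of these small differences lost their call with DESeq2, with library size alone and without positive replicate 2 (adjusted p = 0.0616 for Mxi1 and 0.481 for Mlxip); Mxi1 also lost it without positive replicate 1 (0.315) or negative replicate 2 (0.0747). Mycl had a log2 change of -0.06 (edgeR adjusted p = 0.90), and Mlxipl, with 3 and 1 counts in positive and 5 and 3 in negative libraries, was too low to test.

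Calls were next counted among the cofactors through which the members act. Among 21 MYC coactivators 3 (14.3%, against 11.3% of all genes) rose and 0 (against 13.6%) fell (1 fell at an unadjusted p under 0.05 with edgeR, 0 with DESeq2), with a median log2 change of 0.02 against 0.00 over all genes tested. The 3 were Ccnt1, a subunit of the elongation factor P-TEFb (0.27), Actl6a, a chromatin-remodelling subunit (0.19), and Hcfc1, a host-cell-factor coregulator (0.18). Each of these lost its call without 1 positive library: Ccnt1 without replicate 2 (adjusted p = 0.433), Hcfc1 without replicate 1 (0.181) and Actl6a without either (0.136 and 0.107). Ccnt1 also lost it without negative replicate 1 (0.0732), and the count of 3 was 1 without either positive library, 5 without negative replicate 2, 6 with library size alone and 1 with DESeq2. Among 17 genes of SIN3 and related corepressor complexes, through which MXD proteins and MNT repress, 3 rose and 3 fell (35.3% called in all, against 25% of all genes; median -0.01). The deacetylase Hdac1 (log2 change 0.25), Rbbp7 (0.18) and Rbbp4 (0.16) rose, and the SIN3 subunits Sap30 (-0.38) and Ing2 (-0.31) were among those that fell. Without positive replicate 2, Rbbp7, Rbbp4 and Ing2 were no longer called (adjusted p = 0.124, 0.0904 and 0.13). Rbbp7 and Rbbp4 also lost their calls without positive replicate 1 (0.0698 and 0.222), and Ing2 without negative replicate 1 (0.101). DESeq2 called 3 higher and 1 lower.

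Genes that set MYC protein stability also split. Of 19 tested, 5 rose (26.3%, against 11.3% of all genes) and 2 fell (10.5%, against 13.6%), with a median log2 change of 0.05; DESeq2 called 4 higher and 1 lower. C330027C09Rik, an older symbol of the gene for the PP2A inhibitor CIP2A (0.23), and the PP2A catalytic subunit Ppp2ca (0.17) were among the rises, and the deubiquitinases Usp28 (-0.47) and Usp22 (-0.22) fell. Usp28 was at 24.8 and 27.6 CPM in positive libraries against 35.4 and 37.3 CPM in negative ones, which did not overlap. Without positive replicate 2, Ppp2ca and Usp22 lost their calls (adjusted p = 0.181 and 0.199), as did Ppp2ca without positive replicate 1 (0.0653) and Usp22 with DESeq2 (0.0681) and with library size alone (0.0585). Library size alone gave 9 rises in place of 5, and leaving out a positive library gave 1 (replicate 1) or 2 (replicate 2). These are transcript levels, and MYC protein was not measured here.

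Among 13 other subunits linked to MGA in PRC1.6, 2 rose and 1 fell (median log2 change 0.03), and these 23.1% called lie near the 25% over all genes. The E2F dimer partners Tfdp1 (0.30) and Tfdp2 (0.29) rose, and the histone methyltransferase Ehmt2 fell by 0.21, a call lost without positive replicate 2 (adjusted p = 0.147). Of 13 germline genes known as PRC1.6 targets 5 were listed and 3 tested; Zcwpw1, a reader of histone methylation in meiosis, was the 1 called, with a log2 change of -0.36 (edgeR adjusted p = 0.042), and it lost the call without either positive library (0.271 and 0.0634), without negative replicate 2 (0.192), with DESeq2 (0.198) and with library size alone (0.0875). Of the 2 genes listed as MLX-Mondo targets, Txnip, which restrains glucose uptake, was at 224 and 229 CPM in positive libraries against 283 and 319 CPM in negative ones (log2 change -0.41, edgeR adjusted p = 2.1e-05). Arrdc4 had a log2 change of 0.43 (edgeR adjusted p = 0.49).

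Most of the known MYC-activated genes of the nucleolus and of cell growth listed here were higher in positive cells, and most of the listed MYC-repressed genes were lower. These lists were chosen with earlier results of these data known. Of 47 nucleolar and growth genes 29 rose (61.7%, against 11.3% of all genes tested) and 0 fell (against 13.6%). Npm1 was the 1 gene lower at an unadjusted p under 0.05 with edgeR, and DESeq2 called 20 higher and 0 lower. The median log2 change was 0.20, against 0.00 over all genes, and 45 of 47 lay above 0, against 6061 of 12022. Utp20 (0.45) and Dkc1 (0.44), which act in ribosomal RNA processing and modification, and the nucleolar GTPase Gnl3 (0.39) had the largest rises. Dkc1 was at 167 and 165 CPM in positive libraries against 122 and 122 CPM in negative ones. The count of 29 was 16 without positive replicate 1 and 18 without positive replicate 2. Nucleolin (Ncl) overlapped between populations (log2 change 0.06, edgeR adjusted p = 0.45).

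Metabolic MYC targets were called in both directions, with a median log2 change of 0.12. Of 24, 12 were higher (50%, against 11.3% of all genes tested) and 6 lower (25%, against 13.6%). The purine-synthesis enzyme Ppat (0.39) and the nucleoside diphosphate kinase Nme1 (0.34) led the rises. The amino acid transporter chains Slc3a2 (-0.44) and Slc7a5 (-0.41) and the mitochondrial folate enzyme Mthfd2 (-0.32), which are also known targets of the stress factor ATF4, led the falls. Of 14 genes known to be repressed by MYC, 10 fell (71.4%, against 13.6% of all genes tested) and 0 rose (against 11.3%), with a median log2 change of -0.24. At an unadjusted p under 0.05 with edgeR 1 was higher, and DESeq2 called 6 lower and 0 higher. The cell-cycle inhibitor Cdkn2b was at 3.40 and 3.58 CPM in positive libraries against 9.06 and 6.99 CPM in negative ones (log2 change -1.21), and the stress-responsive Ndrg1 (-0.85) and the cell-cycle inhibitor Cdkn1b (-0.56) followed. The count of 10 was 5 with library size alone and 6 without positive replicate 2. With library size alone, 65.1% of all called genes were higher in positive cells, against 45.4% with TMM scaling.

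**Figure D2:**
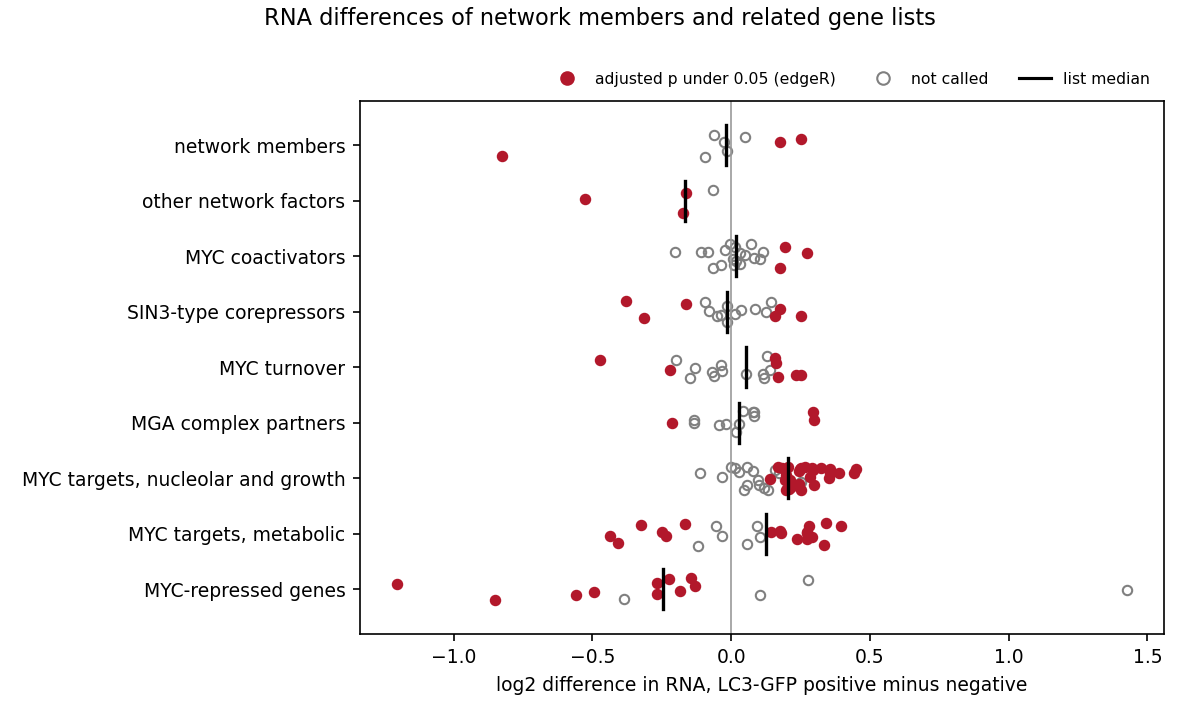
Log2 difference in RNA, positive minus negative (horizontal axis), for each tested gene of the network and of 8 related lists; filled points passed the edgeR test, open points did not, and the black bar is the list median. Nucleolar and growth targets lie mostly above 0 (median 0.20) and MYC-repressed genes mostly below (median -0.24), while the 8 members spread from -0.83 to 0.25.

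The E-box seen in 4 member promoters was also counted over the genes tested for RNA. It was in 13 of 41 nucleolar and growth promoters (31.7%), 4 of 19 metabolic ones (21.1%) and 3 of 13 repressed ones (23.1%). Over all genes tested with a promoter it was in 985 of 9424 (10.5%). Of the 985 genes with CACGTG 13.6% were higher and 10.8% lower in positive cells (median log2 change 0.03), and of the 8439 without it 11.1% were higher and 13.2% lower (median 0.00). None of the members with the motif (Max, Mxd4, Mnt and Mlx) was called. The promoter of Myc, which was called, was not among those searched.

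In chromatin, every member had an ATAC peak over its start in 12 of 12 libraries, and positive and negative cells differed at few places around these genes. Such a peak in every library was present for 77.5% of all genes with RNA counts. Over all 12 libraries the members held 22 merged regions, 11 of them present in every library, against 21.2% of all 94635 regions, and 0 present in all 4 in vitro libraries and no tumour library, against 4.76%. A library counted for a region if any of its peaks merged into it, even a peak past the window's edge, as for Mnt below. A peak present in both libraries of 1 population and neither of the other was found once in the 21 in vitro regions, as positive-only (all regions 8.03%), and 0 times as negative-only (3.32%). In the tumour libraries, 0 of 19 regions were present in all 4 libraries of 1 population and none of the other (all regions 0.691% positive-only and 1.04% negative-only). Peak positions are the authors' and may be off by 1 base, since the files do not say whether they count from 0.

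The positive-only region lay inside Mxd1, 14.4 kb from its start, at chr6:86654309-86655162. It was called in both in vitro positive libraries and in neither negative library, while Mxd1 RNA was lower in positive cells. In the tumour a peak there was called only in negative replicate 2, the library with the most peaks. The Mxd1 start peak and a peak 23.7 kb from the start, past the gene's 3′ end, were present in all 12 libraries, and a further body peak 8.61 kb from the start was called in 3 tumour libraries (positive replicates 2 and 4 and negative replicate 2).

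Myc carried a peak over its start and another over its body, whose summit lay 1753 to 2065 bp from the start (median 1903 bp) in the 7 libraries where it was a separate peak. The peaks were apart in 4 of 4 in vitro libraries and joined into 1 peak in 5 of 8 tumour libraries, 3 of 4 positive and 2 of 4 negative. The 2 experiments were deposited as separate tables, so this difference was not tested. Within each library the peak over the Myc start was high in pileup but low in fold over local background. The authors' fold placed it between the 1.73 and 12.6 percentiles of that library's peaks and the authors' pileup between 84.8 and 97.2. In the 5 tumour libraries with a joined peak these values are those of the joined peak, among them the 12.6 of negative replicate 2. In tumour positive replicate 3 its summit lay in the body, 1748 bp from the start. Mnt showed the same contrast, with fold percentiles of 2.98 to 11.2 and pileup percentiles of 97.5 to 99.8, whereas the Mga start peak had fold percentiles of 62.8 to 88.3.

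A body region of Max 11.6 kb from its start, at chr12:76950028-76951212, was called in 4 of 4 in vitro libraries, in 0 of 4 tumour positive libraries and in 3 of 4 tumour negative libraries, all but replicate 4. It therefore did not meet the rule for negative-only. In tumour negative replicates 1, 2 and 3 its pileup stood at the 19.2, 58.2 and 32.9 percentiles of the library's peaks. The share of all tumour regions with such a split is not given here. Mnt held 3 merged regions, all present in every library: over the start, 7.85 kb into the body and 17.2 kb from the start, the last past the 3′ end at the edge of the window. The peak of this last region reached into the window only in in vitro positive replicate 1, tumour positive replicate 4 and tumour negative replicates 2 and 4. In the other libraries it lay wholly past the edge. Mxd4 and Mlx had their start region alone. Mxd3 had a second peak 1.85 kb into its short body in 7 of 8 tumour libraries, all but positive replicate 1, which joined the start region when all libraries were merged. Mga, the longest member, held 6 regions, of which the start was in 12 libraries and a body region 7.84 kb downstream in 10. This window was set by the deposited start of Mga, and the RefSeq start upstream, at 119872503, lay outside it.

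**Figure D3:**
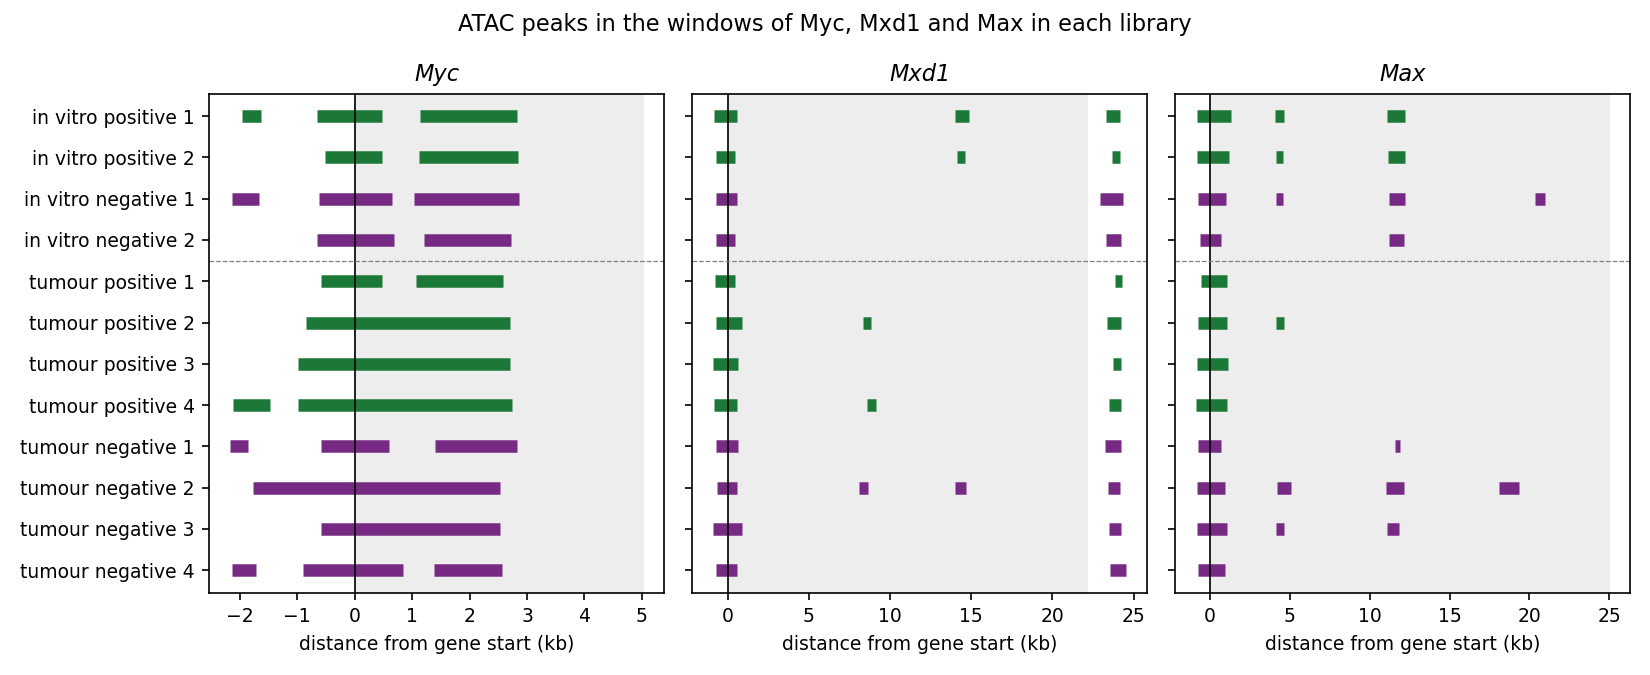
ATAC peaks (bars) in the windows of Myc, Mxd1 and Max in each of 12 libraries (rows; green positive, purple negative), against distance from the gene start in kb; grey shading is the gene body and the dashed line divides in vitro from tumour libraries. Start peaks are present throughout, and the Mxd1 peak at 14.4 kb is in both in vitro positive libraries and in tumour negative replicate 2. The Max peak at 11.6 kb is missing from all 4 tumour positive libraries and from tumour negative replicate 4.

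The number of bases under peaks in each member's window was then compared over the 8 tumour mice. No member passed the test: adjusted p ran from 0.91 (Mlx) to 1 (two-sided exact permutation test over 8 libraries, whose smallest possible p is 0.0286, adjusted over 12900 genes). Over all genes 0% were called, 0 members had an unadjusted p under 0.05, and 4.3% of genes did. Mlx, the lowest, had 1063, 1212, 1138 and 1320 covered bases in positive and 1093, 996, 1123 and 814 in negative mice, which overlap.

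Because libraries differed in total covered length, the same bases were also expressed per Mb of sequence that peaks covered in the library. On that scale Myc was at 93.6, 89.0, 87.9 and 97.9 in the tumour positive and 76.0, 72.0, 74.3 and 85.4 in the tumour negative libraries. Every positive mouse lay above every negative mouse, with means of 92.1 ± 4.60 and 76.9 ± 5.90 (SD, n = 4 each; exact permutation p = 0.0286, the smallest possible, and 0.405 after adjustment over 12900 genes, of which 7.06% had an unadjusted p under 0.05). In unscaled bases Myc overlapped, with 2576, 3560, 3693 and 4250 in positive and 2784, 4300, 3124 and 3219 in negative mice (exact permutation p = 0.743). In vitro, where unscaled bases overlapped (3170 and 2706 in positive against 3440 and 2842 in negative libraries), the scaled order was the opposite, with 49.1 and 52.0 in positive against 61.0 and 59.8 in negative libraries. Mga in vitro was likewise at 51.0 and 51.6 in positive against 72.3 and 65.9 in negative libraries, and Mnt at 78.7 and 93.9 against 102 and 104, without overlap. Mxd4 went the other way without overlap, at 40.5 and 34.8 in positive against 33.2 and 33.6 in negative libraries. In unscaled bases Mxd4 overlapped (2613 and 1812 against 1869 and 1595), and the share of all genes in that direction is not given here. Over all genes, 26.6% had both negative libraries above both positive ones on this scale, and in unscaled bases Mga (3293 and 2685 against 4075 and 3130) and Mnt (5082 and 4886 against 5753 and 4927) overlapped too. With 2 libraries a population no exact test can pass 0.05 there, and none was run.

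**Figure D4:**
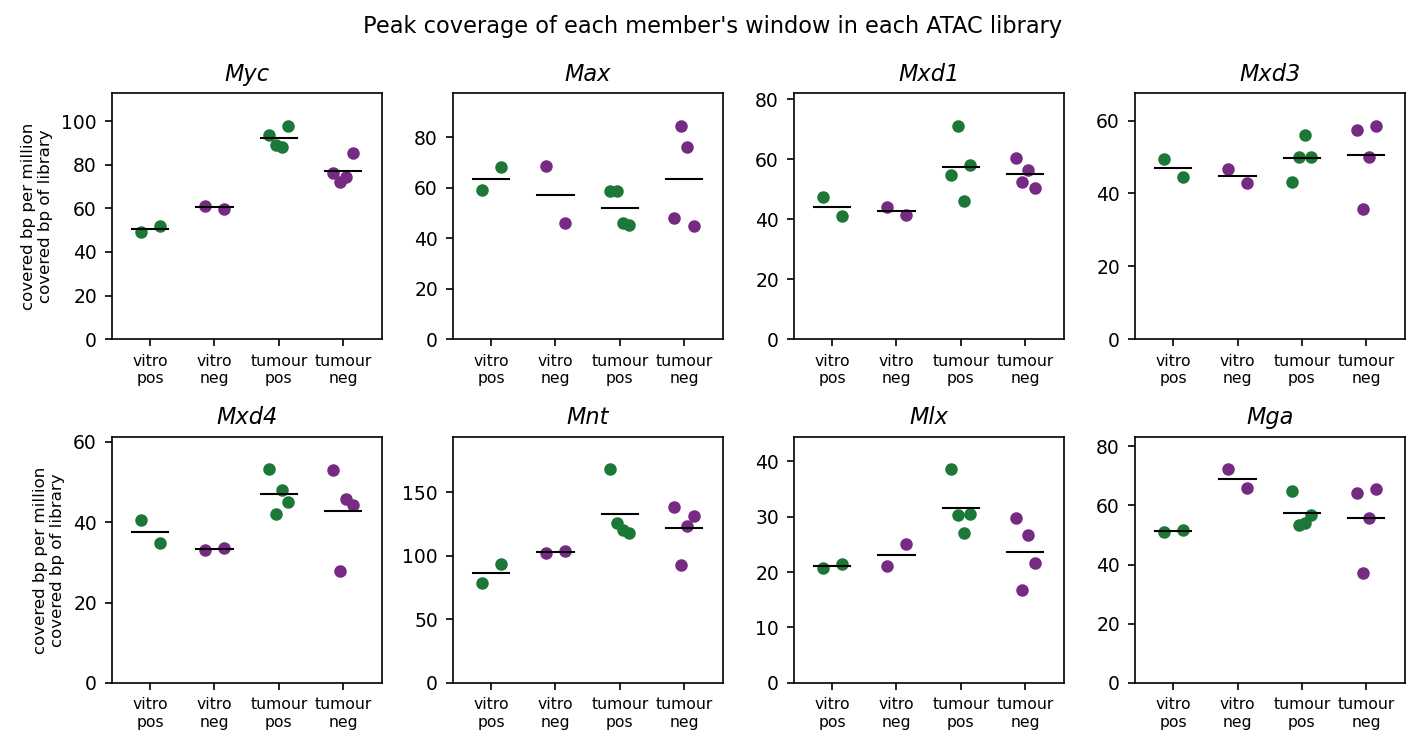
Bases under peaks in each member's window per Mb covered in the library (vertical axis, starting at 0), by experiment and population; points are libraries and lines are means of 2 in vitro or 4 tumour libraries. Myc is higher in tumour positive (87.9 to 97.9) than tumour negative libraries (72.0 to 85.4) and lower in in vitro positive than in vitro negative libraries.

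Across the 12 ATAC libraries, the genes whose scaled coverage ran most like that of Myc among 11776 genes were Zfp869 and Nbas (Pearson r = 0.968 each), Kbtbd7 (0.963), Map3k14 (0.960) and Sp100 (0.955). The other members all had lower values, and their ranks among these genes are not given. They were Mnt (0.762), Mlx (0.665), Mxd1 (0.637), Mxd4 (0.609), Mxd3 (0.317), Mga (0.084) and Max (-0.368). These values describe the 12 libraries and carry no test. The libraries come from the in vitro and tumour experiments and differ in total covered length, by which the coverage was divided. The part of either in these values was not tested.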

How the data were processed

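The authors deposited estimated counts per gene, not scaled, of which 22.5% to 23.8% per library were not whole; per the submitters' processing notes they used Partek, STAR and DESeq2 on mm10. Per the file headers, the deposited ATAC tables list peaks of each library with pileup signal, fold enrichment over local background, and -log10 of p and q (smallest -log10 q 1.302); per the submitters' processing notes Partek, cutadapt, BWA and MACS2 were used. The deposited length in bp of each peak is its end minus its start. Versions, counter, strand setting and any Tn5 shift are not given in the sources used here.

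Counts were rounded and tested with edgeR 4.0.16 in R 4.3.3 (filterByExpr, TMM, quasi-likelihood test, Benjamini-Hochberg, threshold 0.05), tested on simulated data first; the SE is the log2 change divided by the square root of F. A count of 3 was 0.167 to 0.210 CPM. Peaks overlapping by at least 1 bp were merged, and covered bases compared by exact permutation of 70 regroupings. ATAC read depth is unknown. Gene ends are the deposited stop minus 1, matched to RefSeq for names, strand and promoters; exons and introns were not used here. Alternatives were DESeq2 1.42.0, library size alone, other filters, the replicate block, other windows and each library left out; RefSeq gene bodies and leaving out Rn45s were further alternatives, the former chosen after seeing the data.

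Named genes were all members, all other network factors, up to 3 called genes per list and direction with the largest log2 change, and 5 genes most like Myc with a median of at least 1000 covered bases; Npm1, Ncl, Arrdc4 and the markers are named besides, chosen after their values were seen. Members and lists were chosen with earlier results of these data known. Some genes that this rule names are not reported here.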

Additional observations from a re-analysis of the deposited data

Results flagged for a closer look

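Mnt covered bases were 4635 in tumour positive replicate 1, far below the 5048 to 5132 of the other 3 positive mice: the gap was 0.831 of the group's range, above the critical value of Dixon's test. Among 16 such groups tested this was the 1 found, and chance gives about 1 in 20. That library also had the fewest peaks of all 12 (27406).

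Scaled peak coverage of Myc, per Mb covered, differed in direction between experiments: positive minus negative was -9.87 in vitro, where both positive libraries lay below both negative ones, and 15.2 in the tumour, where all 4 positive mice lay above all 4 negative mice. In unscaled bases the populations overlapped in both experiments (tumour exact permutation p = 0.743), so the opposite order is seen on the scaled values alone. This difference was not tested.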

How the results depend on the processing

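Over all genes, 3000 were called by edgeR. DESeq2 called 1733 (718 higher, 1015 lower), and library size alone called 2242 higher. Leaving out 1 RNA library gave 1722 to 3451 calls (683 to 1615 higher, 1039 to 1836 lower), the fewest without positive replicate 1; calls without positive replicate 2 were 1806 (738 higher, 1068 lower). Members higher numbered 1 to 2 with a library left out, since Myc lost its call without either positive library; Mxd1 and Mga kept theirs in all 10 alternatives. The sign reversed for Max with library size alone (0.047) and with a library left out (-0.081 to 0.053), for Mnt (0.0020 and -0.14 to 0.019), for Mlx (0.037 and -0.12 to 0.063), and for Mxd4 with a library left out (-0.013 to 0.11). Windows extended by 10 kb held 32 member regions in vitro and 32 in the tumour, and turned the Myc difference in tumour covered bases to -643. With a library left out, positive-only member regions in vitro numbered 1 to 2 and negative-only 0 to 2, and negative-only tumour regions 0 to 1. The causes were not tested, beyond fewer samples. With the replicate block, edgeR called 3568 genes (1667 higher, 1901 lower); same-numbered RNA libraries deviated together weakly (r = 0.0501 over 12022 genes and 0.104 over the 8896 with a mean of at least 10 CPM), and nothing says that the numbers pair the samples. The peak lists give no read depth, so a peak missing from a library may have been below its calling limit.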
